A study of Mus musculus with 6 samples.

Results

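A set of 40 mitosis and G2/M genes was followed in RNA sequencing of mouse vascular smooth muscle cells. The set was defined by name and holds the cyclins, kinases, kinetochore proteins, kinesins, ubiquitination factors and cytokinesis proteins of dividing cells. Both the set and the further lists below were chosen with earlier results of these data known. Shares of lower genes in them are therefore descriptions, not independent tests. Every name was found among the 54532 genes of the deposited table. The cells carried an adenoviral vector with either a control plasmid (Ad-Con, genotype given as WT, 3 libraries) or a plasmid for overexpression of pyruvate dehydrogenase kinase 4 (Ad-PDK4, genotype given as PDK4 overexpression, 3 libraries). According to the study, both groups were mouse aortic smooth muscle cells (MASMCs), and both were afterwards treated with angiotensin II (Ang II). Cells without the vector or without Ang II were not analysed here. The labels name no promoter for the transgene and do not say what share of the cells took up the vector. They also do not say whether replicates came from separate cultures. The study's legends give n = 3 biological replicates without describing them further, so p-values measure only the spread between these libraries. The question put to these libraries was how PDK4 overexpression acts on the function of the cells.

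A cell that divides copies its DNA in S phase, prepares for division in G2 and separates its chromosomes in mitosis (M). Cyclin B and cyclin A activate CDK1 for entry into mitosis. Polo-like and Aurora kinases, kinesins and microtubule-binding proteins build the spindle, and kinetochores attach chromosomes to it. The anaphase-promoting complex with CDC20 then marks cyclin B and securin for destruction, and a contractile ring divides the cell. Transcripts of these genes rise together in G2 and M, driven by MuvB complexes with B-MYB and FOXM1 and by the CCAAT-binding factor NF-Y. The same genes are held down in quiescent cells by the DREAM complex, which binds the cell cycle homology region (CHR). In the arterial wall, smooth muscle cells are mostly quiescent, and they enter the cycle after injury or in culture.

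Of the 40 genes, 33 were lower in the Ad-PDK4 libraries, 0 were higher and 7 did not pass the test (limma on log2(FPKM + 0.1), Benjamini-Hochberg adjusted p below 0.05 over 13423 genes). That is 82.5% lower, against a background of 20.8% lower and 21.8% higher among all genes tested. FPKM is fragments per kilobase of transcript scaled to sequencing depth, a level corrected for gene length. The log2 fold change (log2FC, Ad-PDK4 against Ad-Con) had a median of -0.77 over the 40 genes and of -0.003 over all genes tested. It ran from -1.34 for Mki67 to -0.04 for Ect2 and was below 0 for each of the 40. With a fold change of at least 2 as a further condition, 8 genes were lower, against a background of 2.68% lower and 3.95% higher. These were Mki67, Kif23, Stmn1, Ccna2, Ccnf, Ccnb2, Birc5 and Cenpa. All 3 Ad-PDK4 libraries lay below all 3 Ad-Con libraries in 33 genes, which happened in 26.5% of all genes tested, and above them in 0 (27.8%). These 33 include Cdk1, which did not pass the test, and leave out Nusap1, which did. The summed FPKM of the 40 genes was 231, 188 and 250 in Ad-Con replicates 1 to 3 and 138, 132 and 119 in Ad-PDK4 replicates 1 to 3. These sums had means of 223 ± 31.9 and 130 ± 9.38 (SD, n = 3 each) and did not overlap. In a bulk sample, fewer cells in G2 and M and less of these transcripts per cell cannot be told apart.

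**Figure D1:**
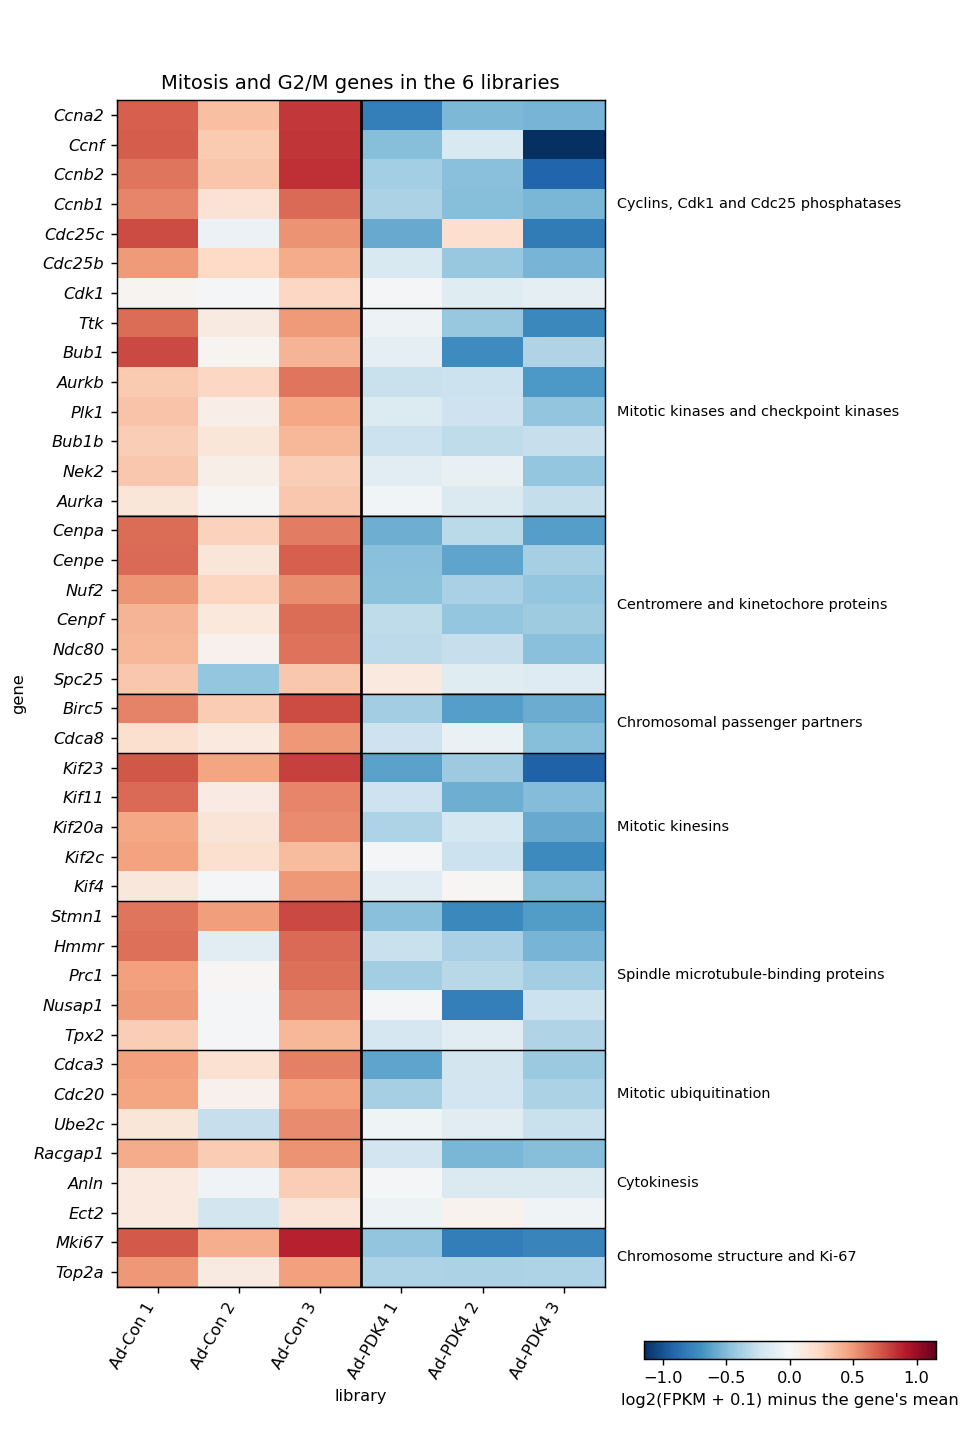
Level of each of the 40 genes (rows, grouped by role) in each library (columns), as log2(FPKM + 0.1) minus the gene's mean over the 6 libraries, red above and blue below that mean. Most rows are red in the Ad-Con columns and blue in the Ad-PDK4 columns, and the column of Ad-Con replicate 2 is the palest of its group.

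The libraries held 17588942 to 21861872 reads in genes, and 1 read in a transcript of 1 kb was worth 0.0453 to 0.0571 FPKM. Each of the 40 genes had between 38 and 1726 reads in each library, with a median of 249.5. Pdk4 itself was lower under the overexpression label, at 9.5, 10.4 and 10.1 FPKM in Ad-Con and 7.67, 7.40 and 7.38 FPKM in Ad-PDK4 (log2FC -0.42, SE 0.06, adjusted p = 0.00114). The Pdk4 values thus do not show the overexpression that the labels name. For its PDK4 plasmid the study gives the primer pair that it also lists for mouse PDK4, while the labels name no species for the transgene. Whether a transcript of the vector would be counted as mouse Pdk4 was not tested, so below, Ad-PDK4 means the libraries labelled Ad-PDK4. Of 8 smooth muscle markers, Tagln, Cnn1, Myh11, Mylk and Des were below a mean of 0.5 FPKM, and Acta2, which encodes smooth muscle actin, was 78.0 FPKM in Ad-Con and 36.2 FPKM in Ad-PDK4 (log2FC -1.11). The summed FPKM of these 8 was 87.8 to 89.4 in Ad-Con and 43.3 to 48.1 in Ad-PDK4, most of it from Acta2. Of the 3 smooth muscle markers that were tested, 1 was lower and 0 were higher. All 6 fibroblast markers were expressed, with sums of 1599 to 1742 and of 835 to 918, and 4 were lower and 1 higher in Ad-PDK4. Of 6 macrophage markers 2 were tested and 1 was lower (Cd68, sums of the list 14.97 to 17.9 and 5.91 to 7.44, with Ptprc and C1qa at 0). Of 4 epithelial markers only 1 was tested, and it was lower (Krt18, sums of the list 36.4 to 38.6 and 14.8 to 16.5, with Epcam at 0). The 6 endothelial markers summed to 0.617 to 0.798 and 0.885 to 1.18 with Tie1 at 0, and the 5 T cell markers to at most 0.333 with Cd3e, Cd3g and Cd8a at 0. The part of these marker differences in the results on the mitosis and G2/M genes was not tested.

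Ad-Con replicate 2 stood apart from the other control libraries in these genes. It was the lowest Ad-Con library in 40 of 40 (100%), whereas it was the lowest in 34.6% of all genes tested. Its FPKM was a median of 77.2% of the mean of Ad-Con replicates 1 and 3, from 58.0% for Hmmr to 90.3% for Cdk1, and a median of 99.98% over all genes tested. Ad-Con replicate 3 was the highest control in 31 genes and replicate 1 in 9. Among the Ad-PDK4 libraries, replicate 3 was the lowest in 23, replicate 2 in 12 and replicate 1 in 5. The coefficient of variation of the 40 genes had a median of 15.8% in Ad-Con and 11.1% in Ad-PDK4. Without Ad-Con replicate 2, 36 of the 40 were lower, beside 17.5% of all genes tested in that fit. The median log2FC of the 40 was then -0.88, and 13 of them were lower by at least 2-fold. Without Ad-Con replicate 1, or without replicate 3, 22 of the 40 were lower, beside 16.6% and 16.1% of all genes tested. The same 11 genes lost the call in both fits. These were Aurka, Ttk, Nek2, Bub1, Cenpf, Ndc80, Cdca8, Kif2c, Tpx2, Nusap1 and Hmmr. The other 22 of the 33 called genes kept the call in every alternative in which they were tested.

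The upstream sequence was not used to choose the set. Genes of this kind are, however, known targets of NF-Y and of the DREAM complex. A high share of the motifs of these factors follows from that choice and is not separate evidence on these libraries. RefSeq (GRCm38.p6) gave the promoter, from 250 bases before to 50 bases after the start, for 34 of the 40, in 36 entries. The CHR was searched as TTTGAA or TTCGAA and the NF-Y box as CCAAT, each on both strands, and the ends of the motifs can share bases. A CHR match was in 83.3% of the members' promoters and in 19.2% of all 32851 promoters. A CCAAT match was in 83.3% and 37.4%, at least 2 were in 58.3% and 11.7%, and both motifs were in 75% and 7.53%. All promoters include those of genes that were not tested here. These shares were not matched for base composition or for level, and a match is a description, not a bound site. The stretches from 120 bases before to 30 bases after the start follow for the 4 genes with the largest falls among those with an entry (Mki67, Kif23, Ccnf, Ccnb2). The 3 uncalled genes with the log2FC nearest to 0 (Ect2, Spc25, Cdk1) are set beside them. Capitals mark the matches to either motif.
Mki67: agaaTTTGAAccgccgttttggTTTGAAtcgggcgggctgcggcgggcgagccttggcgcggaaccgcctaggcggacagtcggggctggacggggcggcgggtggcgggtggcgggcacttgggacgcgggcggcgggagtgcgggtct
Kif23: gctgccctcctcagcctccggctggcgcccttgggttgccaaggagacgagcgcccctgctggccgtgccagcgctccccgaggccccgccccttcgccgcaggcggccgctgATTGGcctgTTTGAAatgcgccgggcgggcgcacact
Ccnf: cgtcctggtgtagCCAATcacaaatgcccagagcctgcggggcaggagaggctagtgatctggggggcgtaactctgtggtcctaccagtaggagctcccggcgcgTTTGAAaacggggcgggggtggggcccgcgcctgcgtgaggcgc
Ccnb2: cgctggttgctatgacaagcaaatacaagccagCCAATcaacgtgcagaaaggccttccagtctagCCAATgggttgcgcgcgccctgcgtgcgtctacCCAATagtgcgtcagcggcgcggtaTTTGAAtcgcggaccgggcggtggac
Ect2: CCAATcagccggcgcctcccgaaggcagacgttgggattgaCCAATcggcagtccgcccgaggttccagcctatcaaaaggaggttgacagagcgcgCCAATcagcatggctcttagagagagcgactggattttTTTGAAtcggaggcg
Spc25: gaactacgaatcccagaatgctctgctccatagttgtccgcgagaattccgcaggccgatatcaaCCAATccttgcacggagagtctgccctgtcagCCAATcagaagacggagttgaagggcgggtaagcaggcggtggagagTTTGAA
Cdk1: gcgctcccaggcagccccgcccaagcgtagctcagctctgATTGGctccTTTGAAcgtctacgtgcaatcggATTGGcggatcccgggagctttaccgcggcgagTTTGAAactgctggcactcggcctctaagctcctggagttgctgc
All 7 lie on the minus strand. The stretches are chr7:135716350-135716499 for Mki67, chr9:61946770-61946919 for Kif23, chr17:24251380-24251529 for Ccnf, chr9:70421525-70421674 for Ccnb2, chr3:27153825-27153974 for Ect2, chr2:69206184-69206333 for Spc25 and chr10:69352883-69353032 for Cdk1. Each of the 7 holds a CHR match, whether or not its gene passed the test. Mki67 has CHR letters at 116 and 98 bases before the start, and its 3 CCAAT matches lie farther upstream, outside the stretch. Ccnb2 carries 3 CCAAT matches followed by a CHR just after the start, and Ect2 shows the same order although its transcript level differed little.

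**Figure D2:**
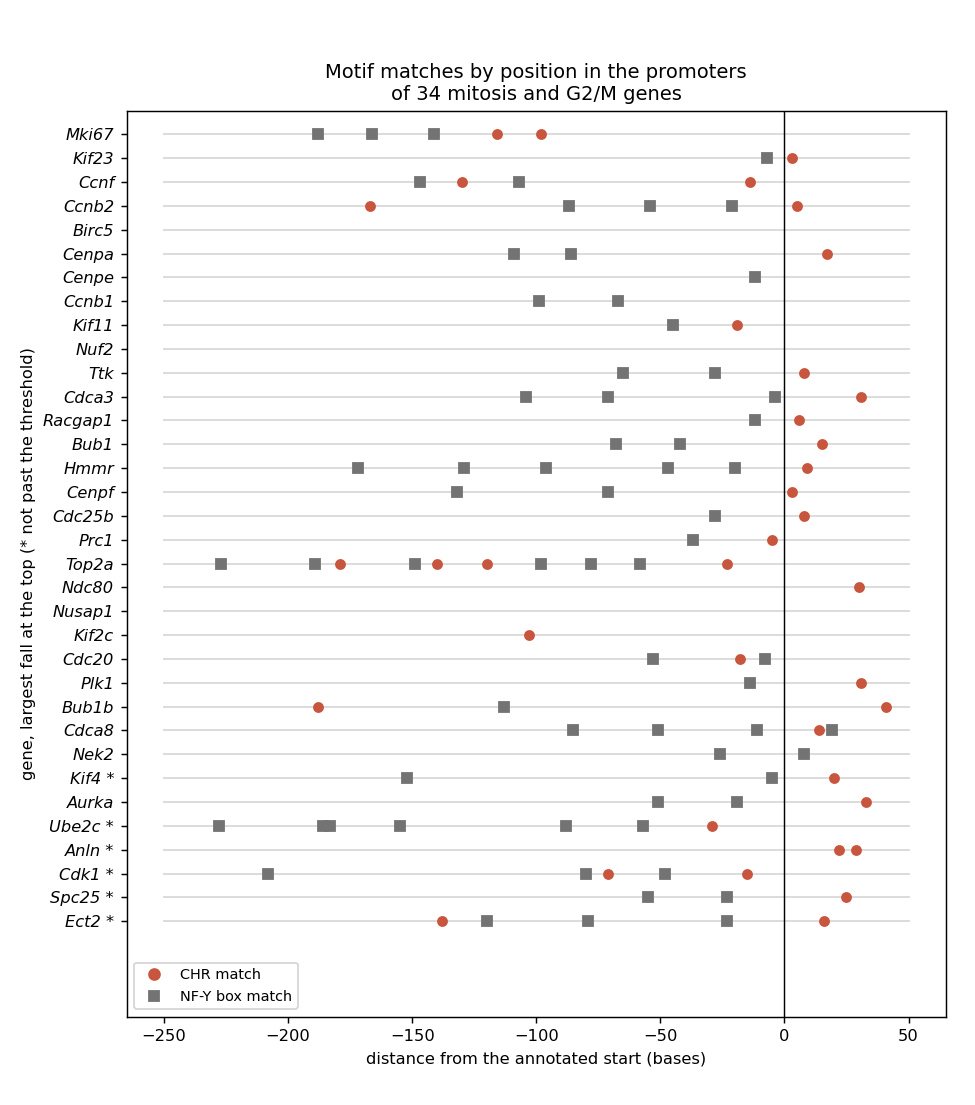
Position of each CHR match (red circle) and each CCAAT match (NF-Y box, grey square) from the annotated start, in bases, for 34 genes ordered by log2FC with the largest fall at the top and an asterisk on genes that did not pass the test. Of 38 CHR matches, 27 begin within 50 bases of the start, and 3 genes (Birc5, Nuf2 and Nusap1) have neither motif.

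By gene, 28 of the 34 had a CHR match, 28 had a CCAAT match and 25 had both. Counted by promoter entry, a CHR match was in 79.3% (23 of 29) for called genes and in 100% (7 of 7, from 6 genes, with Ect2 entered 2 times) for uncalled genes. At least 2 CCAAT matches were in 51.7% of the entries of called genes and in 85.7% of those of uncalled genes. Birc5, with a log2FC of -1.07, had neither motif within the window. The difference between called and uncalled genes was not tested. No promoter entry was used for Ccna2, Cdc25c, Aurkb, Kif20a, Tpx2 or Stmn1.

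Among the cyclins, CDK1 and its activating phosphatases, 5 of 7 were lower (median log2FC -0.92). Ccna2 (chr3:36564865-36572150 on GRCm38, minus strand) encodes cyclin A2, which acts in S phase and in entry into mitosis. Its level was 2.88, 2.25 and 3.16 FPKM in Ad-Con replicates 1 to 3 and 0.969, 1.19 and 1.18 FPKM in Ad-PDK4 replicates 1 to 3, the order used for all such values. The lowest control was 1.89 times the highest Ad-PDK4 library, and the log2FC was -1.23 (SE 0.16, adjusted p = 0.000566). Ccnf (chr17:24223232-24251409, minus strand), which encodes cyclin F, the substrate-binding part of a ubiquitin ligase, had 3.88, 2.94 and 4.25 FPKM against 1.65, 2.08 and 1.01 FPKM. The groups did not overlap, with Ad-PDK4 values spread from 1.01 to 2.08 FPKM (log2FC -1.21, SE 0.26, adjusted p = 0.00853). Ccnb2 and Ccnb1 encode the B-type cyclins that activate CDK1. Ccnb2 fell from 23.0 ± 4.10 to 10.1 ± 1.85 FPKM (SD, n = 3; log2FC -1.19, adjusted p = 0.00246). Ccnb1 fell from 6.42 ± 1.10 to 3.31 ± 0.201 FPKM (log2FC -0.92, adjusted p = 0.000889). The phosphatase gene Cdc25b fell too (log2FC -0.77, adjusted p = 0.00113).

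The kinase gene Cdk1 itself had 6.41, 6.24 and 7.41 FPKM against 6.24, 5.70 and 5.84 FPKM. Its groups nearly touched, since the lowest control was 1.001 times the highest Ad-PDK4 library, and the log2FC of -0.17 (95% interval -0.36 to 0.02, adjusted p = 0.142) did not pass the test. Cdc25c, the other phosphatase gene, had 2.86, 1.58 and 2.42 FPKM against 1.08, 1.91 and 0.910 FPKM. Its Ad-PDK4 replicate 2 lay above Ad-Con replicate 2 (log2FC -0.80, 95% interval -1.52 to -0.08, adjusted p = 0.0742). Cdc25c passed without Ad-Con replicate 2 (log2FC -1.03, adjusted p = 0.0346) and without Ad-PDK4 replicate 2 (log2FC -1.09, adjusted p = 0.0153).

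All 7 mitotic and checkpoint kinase genes were lower, with a median log2FC of -0.57. Ttk (chr9:83834689-83872389, plus strand) encodes MPS1, the kinase that starts the spindle assembly checkpoint. It had 1.17, 0.776 and 1.04 FPKM against 0.681, 0.499 and 0.387 FPKM. Its groups did not overlap (log2FC -0.83, SE 0.27, adjusted p = 0.0383), but the call was lost when either of Ad-Con replicates 1 and 3 (adjusted p = 0.134 and 0.109) or of Ad-PDK4 replicates 2 and 3 (0.0819 and 0.0991) was left out. Bub1 (chr2:127801122-127831865, minus strand), a checkpoint kinase of the kinetochore, had 2.67, 1.57 and 2.04 FPKM against 1.41, 0.892 and 1.19 FPKM. The gap between the groups was narrow (log2FC -0.79, SE 0.23, adjusted p = 0.0247), and without the same 4 libraries the adjusted p was 0.0819, 0.0640, 0.0716 and 0.0551. Steadier falls were found for Aurkb, the kinase of the chromosomal passenger complex (log2FC -0.77, adjusted p = 0.00472), and Plk1, the polo-like kinase of spindle and mitotic entry (log2FC -0.57, adjusted p = 0.00529). Bub1b, which encodes the checkpoint protein BUBR1, had the tightest Ad-PDK4 values of the 7, at 3.40 ± 0.0581 FPKM against 4.99 ± 0.428 FPKM (SD, n = 3; log2FC -0.54, adjusted p = 0.00165). Nek2, a centrosomal kinase, had a log2FC of -0.44 (adjusted p = 0.0223; 0.0748 without Ad-Con replicate 1 and 0.0715 without replicate 3). Aurka, the spindle pole kinase, had the smallest difference of the group (log2FC -0.31, adjusted p = 0.0378) and lost the call when Ad-Con replicate 1 or 3 or Ad-PDK4 replicate 2 or 3 was left out (adjusted p 0.0801 to 0.124).

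**Figure D3:**
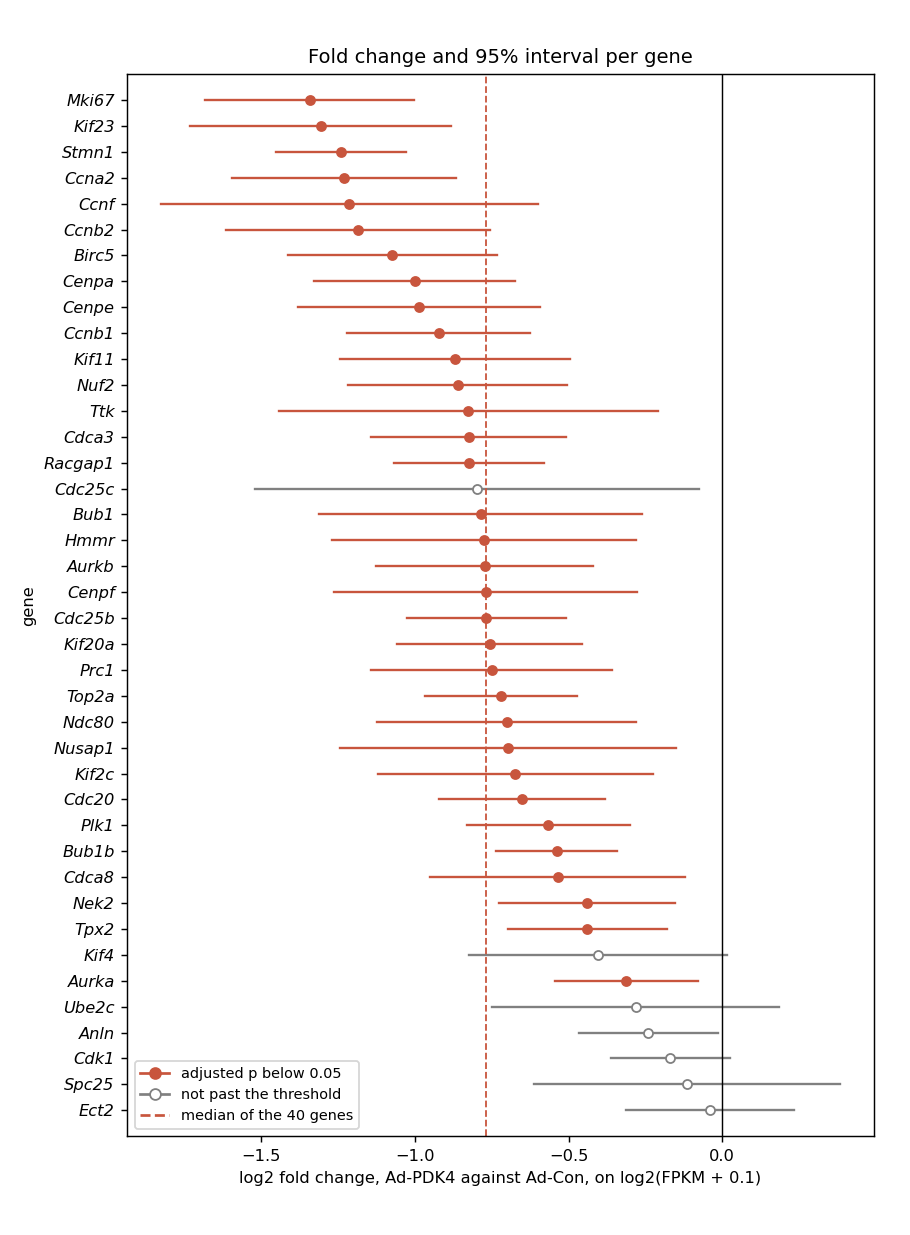
Log2FC (Ad-PDK4 against Ad-Con, on log2(FPKM + 0.1)) with its 95% interval for each of the 40 genes. Mki67 has the lowest value at -1.34 and Ect2 the value nearest to 0 at -0.04, and no gene lies above 0.

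Of the 6 centromere and kinetochore genes, 5 were lower (median log2FC -0.82). Cenpa (chr5:30666777-30674830, plus strand) encodes the histone H3 variant that marks centromeres. It had 3.64, 2.78 and 3.50 FPKM against 1.52, 1.83 and 1.44 FPKM. The lowest control was 1.52 times the highest Ad-PDK4 library (log2FC -1.0, SE 0.14, adjusted p = 0.000925). Cenpe (chr3:135212537-135273611, plus strand), a kinesin that moves chromosomes to the spindle equator, had 2.84, 1.96 and 2.93 FPKM against 1.24, 1.13 and 1.33 FPKM. Its groups were also apart (log2FC -0.99, SE 0.17, adjusted p = 0.00249). The NDC80 complex binds microtubules at the kinetochore, and 3 of its subunits were among the 40 genes. Nuf2 fell to 52.0% of the control mean (log2FC -0.86, adjusted p = 0.00295) and Ndc80 to 58.4% (log2FC -0.70, adjusted p = 0.0163). Ndc80 passed neither without Ad-Con replicate 1 (adjusted p = 0.0529) nor without replicate 3 (0.0626). Spc25, the third subunit, had 4.28, 2.5 and 4.31 FPKM against 3.74, 3.12 and 3.10 FPKM. Ad-Con replicate 2 was the lowest of the 6 libraries and the other controls the highest, and the log2FC of -0.12 (95% interval -0.61 to 0.38, adjusted p = 0.695) did not pass the test. It became -0.37 (adjusted p = 0.0406) without Ad-Con replicate 2. Cenpf, a large protein of the outer kinetochore, fell to 54.2% (log2FC -0.77, adjusted p = 0.0209), and without Ad-Con replicate 1, Ad-Con replicate 3 or Ad-PDK4 replicate 2 its adjusted p was 0.0655, 0.0873 and 0.0502.

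The 40 genes hold a pair of Aurora B partners of the chromosomal passenger complex, Birc5 and Cdca8, and both were lower. A further partner gene, Incenp, was outside the set and did not pass the test (mean 4.81 FPKM in Ad-Con and 5.43 FPKM in Ad-PDK4, log2FC 0.19, adjusted p = 0.295). Birc5 (chr11:117849251-117855743, plus strand) encodes survivin, which brings the complex to centromeres. It had 2.76, 2.26 and 3.15 FPKM against 1.36, 1.14 and 1.2 FPKM, so that the lowest control was 1.67 times the highest Ad-PDK4 library (log2FC -1.07, SE 0.15, adjusted p = 0.000804). Cdca8 (chr4:124918465-124939311, minus strand), which encodes borealin, had 1.36, 1.29 and 1.72 FPKM against 0.987, 1.11 and 0.813 FPKM. Its values did not overlap but its call was the least stable of the 33 (log2FC -0.54, SE 0.18, adjusted p = 0.0438), and it was lost in 9 of 14 alternatives. Left out in turn, Ad-Con replicates 1, 2 and 3 and Ad-PDK4 replicates 1 and 3 gave adjusted p-values of 0.0811, 0.0537, 0.149, 0.0918 and 0.116.

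Of 5 mitotic kinesins, 4 were lower (median log2FC -0.76). Kif23 (chr9:61915905-61946774, minus strand) encodes MKLP1, the motor of the centralspindlin complex at the spindle midzone. It had 2.05, 1.69 and 2.14 FPKM against 0.751, 0.875 and 0.584 FPKM. Every Ad-PDK4 library was far below every control, with the lowest control 1.93 times the highest Ad-PDK4 library (log2FC -1.31, SE 0.18, adjusted p = 0.000915). Kif11 (chr19:37376403-37421859, plus strand), the motor that pushes spindle poles apart, had 4.92, 3.31 and 4.61 FPKM against 2.61, 2.06 and 2.16 FPKM. Again the groups did not overlap (log2FC -0.87, SE 0.16, adjusted p = 0.00362). Kif20a, a motor of the late spindle, fell from 10.5 ± 1.49 to 6.18 ± 0.815 FPKM (SD, n = 3; log2FC -0.76, adjusted p = 0.00253). Kif2c, which depolymerises microtubules at centromeres, had a log2FC of -0.67 (adjusted p = 0.0244; 0.0794 without Ad-Con replicate 1 and 0.0680 without replicate 3). Kif4, a motor on chromosome arms, had 2.12, 1.90 and 2.76 FPKM against 1.75, 1.95 and 1.35 FPKM. Ad-PDK4 replicate 2 lay above the lowest control, and the log2FC of -0.40 (95% interval -0.82 to 0.02, adjusted p = 0.110) did not pass.

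The 5 spindle microtubule-binding genes were all lower (median log2FC -0.75). Stmn1 (chr4:134468320-134473843, plus strand), which encodes the microtubule-destabilising protein stathmin, had the highest mean FPKM of the 40. Its values were 31.1, 28.3 and 34.4 FPKM against 14.5, 12.1 and 13 FPKM. The lowest control was 1.95 times the highest Ad-PDK4 library, the widest gap of the 40 (log2FC -1.24, SE 0.09, adjusted p = 3.27e-05). Hmmr (chr11:40701395-40733422, minus strand), a spindle protein that also binds hyaluronan, had 4.54, 2.65 and 4.61 FPKM against 2.41, 2.22 and 1.97 FPKM. Ad-Con replicate 2 was nearer to the Ad-PDK4 libraries than to the other controls. The log2FC was -0.77 (SE 0.21, adjusted p = 0.0218), or -1.03 without Ad-Con replicate 2 (adjusted p = 0.000765), and the adjusted p was 0.0616 to 0.0744 without Ad-Con replicate 1 or 3 or Ad-PDK4 replicate 2 or 3. Prc1, which bundles midzone microtubules, fell to 56.8% of the control mean (log2FC -0.75, adjusted p = 0.00879). Tpx2, the activator of Aurora A on the spindle, fell to 73.1% (log2FC -0.44, adjusted p = 0.0152), with adjusted p-values of 0.0517 and 0.0528 without Ad-Con replicate 1 and replicate 3. Nusap1, a spindle-binding protein, passed the test although its groups barely overlapped (log2FC -0.70, adjusted p = 0.0462). It lost the call without Ad-Con replicate 1 or 3 or Ad-PDK4 replicate 2 or 3, at adjusted p-values of 0.0874 to 0.138.

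**Figure D4:**
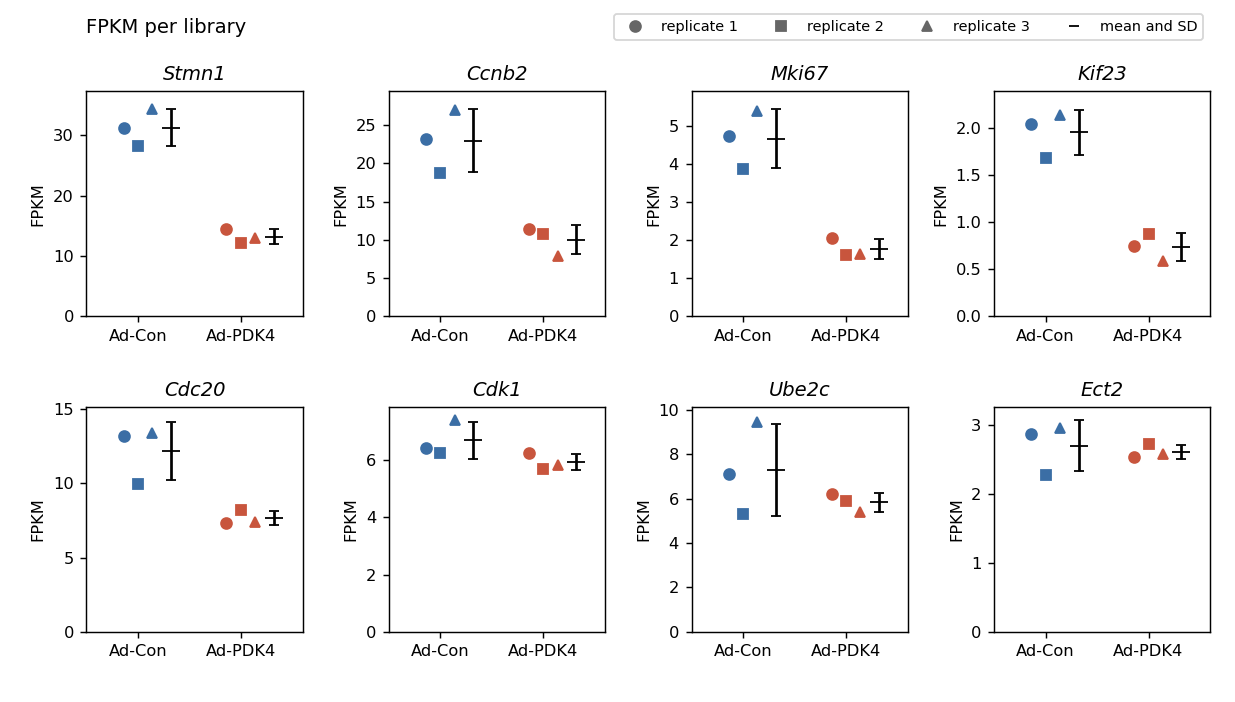
FPKM of 8 of the genes in each library (points, shaped by replicate), with the mean and SD of each group (bars, n = 3), on axes that start at 0. The groups are apart for Stmn1, Ccnb2, Mki67, Kif23 and Cdc20, nearly touch for Cdk1 and overlap for Ube2c and Ect2.

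In mitotic ubiquitination 2 of 3 genes were lower. Cdca3 (chr6:124829547-124833701, plus strand), an F-box-like protein linked to entry into mitosis, had 5.83, 4.73 and 6.29 FPKM against 2.70, 3.59 and 3.08 FPKM, with no overlap (log2FC -0.83, SE 0.14, adjusted p = 0.00207). Cdc20 (chr4:118432901-118437352, minus strand), the activator of the anaphase-promoting complex, had 13.2, 9.94 and 13.3 FPKM against 7.32, 8.20 and 7.42 FPKM. It was likewise lower in each Ad-PDK4 library (log2FC -0.65, SE 0.12, adjusted p = 0.00306). Ube2c, the ubiquitin-conjugating enzyme of that complex, had 7.12, 5.32 and 9.46 FPKM against 6.23, 5.91 and 5.38 FPKM. The lowest of the 6 values belonged to Ad-Con replicate 2 (log2FC -0.28, 95% interval -0.75 to 0.19, adjusted p = 0.293), and without that library the log2FC was -0.49 (adjusted p = 0.0261).

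The cytokinesis genes split, with 1 of 3 lower. Racgap1 (chr15:99620496-99651656, minus strand), which encodes the centralspindlin partner of MKLP1, had 5.92, 5.37 and 6.29 FPKM against 3.73, 3.01 and 3.08 FPKM. Its groups were well apart (log2FC -0.82, SE 0.11, adjusted p = 0.000586). Anln (chr9:22332012-22389188, minus strand), which encodes anillin, the scaffold of the contractile ring, had 5.52, 4.94 and 6.22 FPKM against 5.00, 4.52 and 4.51 FPKM. Ad-PDK4 replicate 1 lay just above Ad-Con replicate 2 (log2FC -0.24, SE 0.10, 95% interval -0.47 to -0.01, adjusted p = 0.0830), and without Ad-Con replicate 2 the log2FC was -0.32 (adjusted p = 0.0368). Ect2, the exchange factor that switches on RhoA at the midzone, had 2.87, 2.27 and 2.95 FPKM against 2.53, 2.72 and 2.57 FPKM. All of its Ad-PDK4 values fell between the lowest control and the others (log2FC -0.04, 95% interval -0.31 to 0.23, adjusted p = 0.811). Without Ad-Con replicate 1 or 3 the log2FC of Ect2 was 0.01 or 0.03.

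Mki67 (chr7:135689784-135716361, minus strand) encodes Ki-67, the coat protein of mitotic chromosomes used as a marker of cycling cells. It had 4.74, 3.87 and 5.41 FPKM against 2.06, 1.61 and 1.65 FPKM. The lowest control was 1.88 times the highest Ad-PDK4 library, and the log2FC of -1.34 (SE 0.15, adjusted p = 0.000258) was the lowest of the 40. Top2a (chr11:98992943-99024189, minus strand), which encodes the topoisomerase that untangles chromosomes, had 9.41, 7.12 and 9.19 FPKM against 5.13, 5.11 and 5.14 FPKM. Its Ad-PDK4 libraries were nearly equal, at 5.13 ± 0.0169 FPKM (SD, n = 3), and all were below the controls (log2FC -0.72, SE 0.11, adjusted p = 0.00123).

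Some of these genes share sequence with other genes, where the counting could split or merge reads. At least 10% of the longest transcript, in stretches of 75 bases, was shared for 9 of the 40. Ccnb1 shared 50.9% with 5 pseudogenes, and the 4 of them counted in the table had at most 11 reads in a library. Stmn1 shared 42.4% with the pseudogene Gm11223, which had 29, 53 and 37 reads in Ad-Con and 9, 8 and 13 in Ad-PDK4. Kif20a shared 34.7% with Cdc23, which had 1368, 1109 and 1153 reads in Ad-Con and 1281, 1204 and 1594 in Ad-PDK4. Ube2c shared 25.1% with Tnnc2, which had at most 1 read. Cdc25c shared 23.7%, Ccna2 17.3%, Cdc20 17.1%, Kif4 16.7% and Plk1 16.1%. The Plk1 pseudogene Plk-ps1 had 39, 41 and 34 reads in Ad-Con and 51, 62 and 79 in Ad-PDK4, opposite in direction to Plk1. Plk1 itself had 376, 273 and 365 reads against 239, 218 and 236. Whether reads were split between them was not tested. Cdc23 lies on the opposite strand of Kif20a, and the sources used here do not say whether counting used strand.

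Other genes of the same processes were taken from 8 further lists. Of 149 tested genes in them, 47 were lower and 18 higher (31.5% and 12.1%, beside the 20.8% and 21.8% of all genes), with a median log2FC of -0.18. Other centromere and kinetochore proteins had 12 of 29 lower and 2 higher. In that list Spc24, the remaining NDC80 complex subunit (log2FC -0.96, adjusted p = 0.00150), and Ska1, a microtubule coupler (log2FC -0.96, adjusted p = 0.0429), fell most, and Ska2 (0.38) and Zwint (0.25) were higher. Ska1 averaged 0.700 FPKM in Ad-Con and 0.320 FPKM in Ad-PDK4, with 12 to 18 reads in each Ad-PDK4 library. Only its Ad-Con level took it past the filter of 0.5 FPKM, so its fall is weakly based. Other kinesins, spindle and centrosome proteins had 10 of 24 lower and 1 higher. The spindle pole protein gene Aspm fell from 1.87, 1.66 and 2.16 to 0.678, 0.794 and 0.551 FPKM (log2FC -1.37), Knstrn had a log2FC of -1.11, and Cep192, a centriole protein, was higher (0.24). Other cytokinesis proteins had 6 of 15 lower and 3 higher, with Pimreg at -1.62 and Depdc1a at -0.95 on the log2 scale against Chmp4b at 0.44 and Sept7 at 0.36. Depdc1a likewise passed the filter only through Ad-Con, at 0.922 FPKM there and 0.419 FPKM in Ad-PDK4 (24 to 29 reads). Condensin, cohesin and separase genes had 7 of 19 lower, led by the condensin subunit Ncapd2 (-0.87) and the separase gene Espl1 (-0.83), and 1 higher, Ncapd3 (0.31).

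The anaphase-promoting complex had 4 of 17 lower, with Anapc5 at -0.47 and Anapc16 at -0.31 on the log2 scale, and 1 higher, Anapc1 (0.25). In mitotic entry control 4 of 17 were lower, with the kinase gene Melk (-0.66) and the CDK subunit gene Cks2 (-0.43) leading, and 3 were higher, with Cdk7 (0.46) and the phosphatase gene Cdc25a (0.30) leading. Of 10 further spindle assembly checkpoint genes, Mad2l1 was lower (log2FC -0.69, adjusted p = 0.0061) and Zw10 (0.22) and Bub3 (0.21) were higher. The median log2FC was -0.02, -0.16 and -0.12 in these 3 lists. In the same order, 23.5%, 23.5% and 10% were lower, beside 20.8% of all genes tested. The shares higher were 5.88%, 17.6% and 20%, beside 21.8% of all genes tested.

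**Figure D5:**
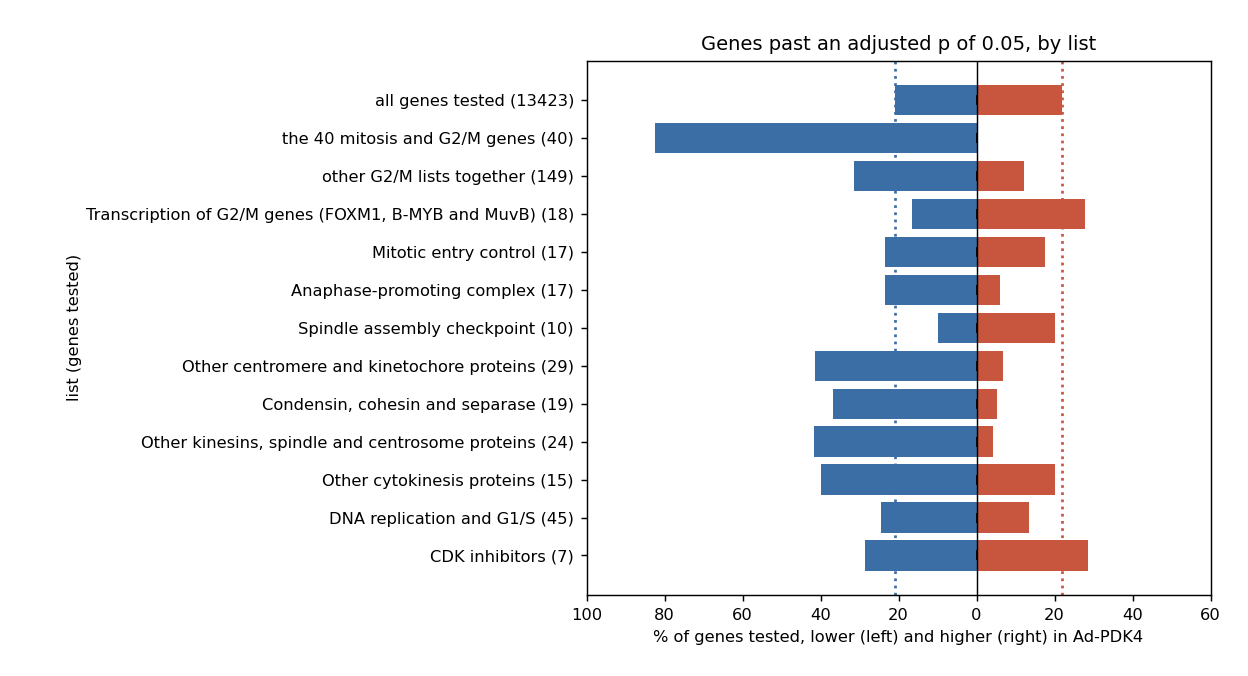
Share of the tested genes of each list that was lower (left, blue) or higher (right, red) in Ad-PDK4 at an adjusted p below 0.05, with dotted lines at the shares among all genes tested, 20.8% and 21.8%. The 40 genes have 82.5% lower and 0 higher, and no other list has over 41.7% lower.

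Of the factors known to drive G2/M transcription, neither Foxm1 nor Mybl2 passed the test. Foxm1 had 4.08 ± 0.634 FPKM in Ad-Con and 3.18 ± 0.490 FPKM in Ad-PDK4 (SD, n = 3; log2FC -0.35, 95% interval -0.70 to 0.001, adjusted p = 0.0994). Per library, Foxm1 had 4.47, 3.35 and 4.42 FPKM against 3.32, 3.58 and 2.64 FPKM, so Ad-Con replicate 2 was the lowest control here too. Mybl2, which encodes B-MYB, had 0.787 ± 0.0532 and 0.755 ± 0.139 FPKM (log2FC -0.07, adjusted p = 0.830). Among 18 tested genes of this list 3 were lower and 5 higher, with a median log2FC of -0.02. These are 16.7% lower and 27.8% higher, beside 20.8% and 21.8% of all genes tested. The MuvB subunit gene Lin52 was higher (log2FC 0.64, adjusted p = 0.00147), as were E2f4 (0.45), E2f3 (0.34), Tfdp1 (0.27) and E2f1 (0.20). Rbl2, which encodes the DREAM pocket protein p130, was lower (-0.31), as were the NF-Y subunit gene Nfya (-0.43) and the E2F partner gene Tfdp2 (-0.24).

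In the preceding phase of the cycle, 11 of 45 tested DNA replication and G1/S genes were lower and 6 higher, with a median log2FC of -0.18. These are 24.4% lower and 13.3% higher, beside the 20.8% and 21.8% of all genes tested. Scaled to TPM, the same list had 6 lower and 8 higher, and all genes tested had 18.1% lower and 25.0% higher. Rrm2, a subunit of ribonucleotide reductase (log2FC -0.67, adjusted p = 0.0469), and the primase gene Prim2 (-0.59, adjusted p = 0.0073) fell most. The cyclin genes Ccne1 and Ccnd3, which act before S phase, were higher, with Ccnd3 at 9.37, 9.44 and 9.23 FPKM in Ad-Con and 15.6, 17.3 and 15.5 FPKM in Ad-PDK4 (log2FC 0.78). Among 7 CDK inhibitor genes, Cdkn2b (log2FC 0.45, adjusted p = 0.00186) and Cdkn1a, which encodes p21 (0.23, adjusted p = 0.0225), were higher. Cdkn2a (-0.30, adjusted p = 0.00475) and Cdkn1b, which encodes p27 (-0.19, adjusted p = 0.0174), were lower. Of the 7, 28.6% were thus lower and 28.6% higher, beside 20.8% and 21.8% of all genes tested. Cdkn2a had a mean of 229 ± 4.25 FPKM in Ad-Con and 187 ± 13.2 FPKM in Ad-PDK4 (SD, n = 3), far above the level per length of any of the 40 mitosis and G2/M genes. Cdkn1c, Cdkn2c and Cdkn2d did not pass the test, at log2FC of -0.59, 0.11 and 0.14.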

How the data were processed

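RNA was sequenced in 6 libraries of cells labelled as vascular smooth muscle cells, 3 Ad-Con and 3 Ad-PDK4, grouped by their treatment labels. For library preparation the labels give a SMARTER kit and the study's methods a NEBNext kit. The submitters' processing notes list CASAVA 1.8, fastp, HISAT2 2.0.5, featureCounts 1.5.0-p3 and DESeq2 1.20.0. They name GRCm39, but 98.3% of 54409 matched genes had the coordinates of GENCODE M21 (GRCm38), which are used here. The authors deposited FPKM per gene and library. FPKM times gene length gave whole reads for 100% of values within 0.01.

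Since FPKM is not a count, log2(FPKM + 0.1) was tested with limma 3.58.1 in R 4.3.3 (trend, robust), without covariates, over the genes averaging 0.5 FPKM or more, with Benjamini-Hochberg adjustment over all of them. Every adjusted p is from this fit unless an alternative is named. The script was tested on simulated data. Of the 40 genes, the 2 with the largest log2FC in each of 9 roles, and the one with the highest FPKM, were given per library. Further genes were named as the largest rises and falls of each list. Incenp and the uncalled genes given per library besides were picked with their values in view. The members, roles and lists were chosen with earlier results of these data known. 15 alternatives were run (pseudocount, filter, TPM, quantile normalization, limma-voom, moderation, replicate block, leaving out each library).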

Additional observations from a re-analysis of the deposited data

How the results depend on the processing

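The direction of the 40 genes together and of Pdk4 was kept under all 15 alternatives, with 0 of the 40 higher in any. With a pseudocount of 1, 3 were lower by at least 2-fold and the median log2FC was -0.52. A minimum mean FPKM of 5 left 12 of the 40, of which 9 were lower and 2 by at least 2-fold, and the other G2/M genes then had 20 lower. The G1/S genes had 6 lower without a filter and with TPM, 5 with a minimum of 5 FPKM (median log2FC 0.0075, on the other side of 0), and 18 with limma-voom, which called 36 of the 40. Without a filter 26 of the 40 were lower, with TPM 30, with quantile normalization 32 and with plain moderation 31. In the same order, 9.93%, 18.1%, 23.3% and 19.5% of all genes tested were lower. With a minimum of 5 FPKM 24.3% of all genes tested were lower, and with limma-voom 24.0%. Apart from the filters, which change the genes tested, the cause of these different counts was not tested. Leaving out each library in turn gave 22 to 36 of the 40 lower, 6 to 13 by at least 2-fold and medians of -0.88 to -0.66. The same fits gave 27 to 44 lower and 8 to 18 higher other G2/M genes (medians -0.25 to -0.13), 5 to 11 lower and 4 to 6 higher G1/S genes (medians -0.24 to -0.09) and a log2FC of Pdk4 of -0.45 to -0.39. Over all genes tested, these fits gave 16.1% to 20.1% lower and 17.2% to 19.9% higher. Some values near 0 changed sign. Without 1 library the log2FC ranged from -0.37 to 0.012 for Spc25, from -0.15 to 0.026 for Ect2, from -0.15 to 0.075 for Mybl2, from -0.12 to 0.19 for Lin9 and from -0.15 to 0.053 for Lin37, and with TPM it was 0.017 for Lin9 and 0.020 for Lin37. None of these passed the test apart from Spc25 without Ad-Con replicate 2.

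Same-numbered libraries did not deviate together over all genes tested (r = -0.05, -0.03 and -0.001). These values cannot show whether libraries of the same number were prepared as pairs. With the replicate block 30 of the 40 were lower, since Aurka, Ttk and Cdca8 lost the call.

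The shallowest gene of the 40 had 38 reads in a library, so its values carry more counting error than those of the others.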
